A study of Mus musculus with 6 samples.

Results

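The interleukin-1 family and the inflammasome were examined in liver RNA as 10 genes of the 24346 rows of a gene-level expression table, matched by gene symbol. They are the ligands Il1a, Il1b, Il18 and Il33, the receptor antagonist Il1rn, the receptor Il1r1, and the inflammasome genes Nlrp3, Pycard, Casp1 and Gsdmd. Livers of 3 control mice and 3 lipophagy-induced mice were compared. All were male mice, C57BL/6 in the labels and C57BL/6J in the study's methods, that were fed CDAHFD (a high-fat diet of defined amino acids without choline, used as a model of steatohepatitis) for 6 weeks from 8 weeks of age, were given an adeno-associated virus of serotype 8 by vein, and were returned to normal chow for 2 weeks before the livers were taken. In both groups the virus used the liver-specific thyroxine-binding globulin promoter and encoded a lipid droplet-targeting sequence (LDTS) of perilipin 1. In control mice this sequence was fused to a mutated LC3-interacting region (LDTS-LIR mut), and in lipophagy-induced mice to an engineered region that binds the autophagosome protein LC3 (LDTS-eLIR), which brings droplets to autophagosomes. Neither group was free of the vector or of the droplet-targeting part, so the comparison addresses the LC3-binding region on top of them. The question asked here was whether RNA of the interleukin-1 axis differed between the groups.

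Interleukin-1 alpha and interleukin-1 beta bind the same receptor, which pairs with the accessory protein encoded by Il1rap and signals through MYD88 and IRAK kinases to NF-kB, and the product of Il1rn occupies the receptor without signalling. Interleukin-1 beta and interleukin-18 are made as inactive precursors that are cut by caspase-1, a protease activated in the inflammasome, where a sensor such as NLRP3 gathers the adaptor ASC (encoded by Pycard). Caspase-1 also cuts gasdermin D, whose fragment opens pores in the cell membrane. In the liver these genes are studied as part of the inflammation that accompanies steatohepatitis, with macrophages, monocytes and neutrophils as known sources of interleukin-1 beta. The RNA values below do not report on cleavage or secretion.

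Values were deposited as FPKM, fragments scaled to the length of the transcript in kilobases and to the total of mapped fragments, so that levels of different genes can be set side by side per length. The FPKM of a liver summed to between 622696 and 681138 in control and between 709993 and 782392 in lipophagy-induced livers. Between 15638 and 15988 genes were above 0 in control and between 15342 and 15469 in lipophagy-induced livers. The groups thus stood apart in both, and the part of this in the differences below was not tested beyond the other scalings given. The depth, estimated from the whole-fragment steps of low values, was 24.4 to 34.8 M fragments in control livers and 23.5 to 25.3 M fragments in lipophagy-induced livers. Hepatocyte RNA dominated every library, with albumin (Alb) at 35470 to 64090 FPKM. No 2 livers held identical values. Differences between groups were tested on log2(FPKM + 1) with limma, with Benjamini-Hochberg adjustment over the 11493 genes that had a mean of at least 0.5 FPKM, and a difference below is that of lipophagy-induced less control livers on this scale. The labels number the livers without naming the animals, so the p-values measure the spread between these 6 samples. A single value compared by exact permutation of 3 livers against 3 cannot give a p below 0.1.

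The promoters of Il1b, Pycard and Casp1 are shown because these were the 3 genes whose FPKM was lower in every lipophagy-induced liver than in every control liver. Each run holds the 250 bases before the RefSeq start on the gene's own strand in GRCm38.p6, with the letters of a motif match in capitals. For Il1b it spans chr2:129371140-129371389 (minus strand), for Pycard chr7:127993868-127994117 (minus strand) and for Casp1 chr9:5298267-5298516 (plus strand).
Il1b: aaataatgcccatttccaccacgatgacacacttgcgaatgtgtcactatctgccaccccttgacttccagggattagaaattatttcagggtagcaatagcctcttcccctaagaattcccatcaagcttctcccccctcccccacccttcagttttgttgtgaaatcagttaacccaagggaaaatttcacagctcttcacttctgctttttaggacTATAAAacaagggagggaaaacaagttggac
Pycard: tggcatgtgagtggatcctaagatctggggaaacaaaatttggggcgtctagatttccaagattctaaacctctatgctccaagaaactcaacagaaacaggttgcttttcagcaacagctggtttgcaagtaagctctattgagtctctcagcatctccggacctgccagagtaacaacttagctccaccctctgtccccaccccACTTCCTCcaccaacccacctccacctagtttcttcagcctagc
Casp1: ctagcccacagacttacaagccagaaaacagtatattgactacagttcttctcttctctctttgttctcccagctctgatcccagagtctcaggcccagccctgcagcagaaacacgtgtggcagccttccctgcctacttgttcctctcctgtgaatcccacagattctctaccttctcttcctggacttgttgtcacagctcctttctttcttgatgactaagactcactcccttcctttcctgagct
The capitals mark a TATA match (TATAAA) that begins at base -31 of Il1b and a match to the PU.1 motif (GAGGAAGT, read here on the opposite strand) that begins at base -44 of Pycard. No searched motif lay in this window of Casp1. The motifs were searched on both strands in the promoters of the 9 genes that had an entry, Gsdmd having none, which together had 14 starts. The NF-kB motif was found in 7.25% of all 32851 promoters and in those of 2 of the 9 genes, Il1r1 and Nlrp3. The AP-1 motif TGANTCA was found in 6.75% of all promoters and in those of Il1a and Il1rn. The PU.1 motif was found in 2.44% of all promoters and in that of 1 gene, the IRF motif (GAAA, any 2 bases, GAAA) in 2.98% and in none of the 9, and TATAAA in 12.4% and in those of 4 genes, Il1a, Il1b, Il18 and Il33. These matches describe letters in the window and say nothing of whether a factor was bound.

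The study's PCR primers for Il1b are shown because they mark the stretch of the transcript that its quantitative PCR reads. They are given in capitals throughout.
Il1b forward: TTCAGGCAGGCAGTATCACTC
Il1b reverse: GAAGGTCCACGGGAAAGACAC
The forward primer lies at chr2:129368057-129368077 and the reverse primer at chr2:129368003-129368023 (GRCm38). Both lie in coding exon 4 of 7 and bound a product of 75 bases that spans no intron. The FPKM value, in contrast, is made from fragments over the whole transcript. The study shows real-time PCR of inflammation-related genes for mice given digoxin or alpelisib and their controls, which are not the livers measured here.

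In the livers as a whole the 10 genes covered a wide range of levels. Gsdmd was the highest at a mean of 24.8 FPKM over the 6 livers, followed by Il18 at 12.9 FPKM and Il1r1 at 5.18 FPKM. Il1rn at 3.39 FPKM and Casp1 at 3.38 FPKM could not be ordered, since Il1rn was the higher of the pair in 3 of 6 livers. Il1b at 1.98 FPKM, Pycard at 1.87 FPKM and Il1a at 1.36 FPKM formed the next group, and in it each gene was above the next in 4 of 6 livers. Il33 at 0.614 FPKM and Nlrp3 at 0.223 FPKM were the lowest. Every other step of this order held in 6 of 6 livers.

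Between the groups, 8 of the 10 genes had a lower mean in lipophagy-induced livers and 2, Il18 and Il1r1, a higher mean. After adjustment 0 of the 9 genes that could be tested passed 0.05, where 0.0261% of all 11493 tested genes did. At an unadjusted p below 0.05, 3 of the 9 were lower (Il1b, Pycard and Casp1), against 7.97% of all tested genes, and 0 were higher, against 11.5%. The same 3 genes were those whose lipophagy-induced livers all lay below the control livers, which 10.8% of all tested genes did, and for 0 of the 10 did they all lie above, which 15.4% did. The median difference over the 9 genes was -0.19, beside 0.020 over all tested genes, and it was -0.097 without control liver 1 and -0.30 with a pseudocount of 0.1. The counts refer to 9 genes with limma, and the 10th, Nlrp3, was below the level required for testing.

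**Figure D1:**
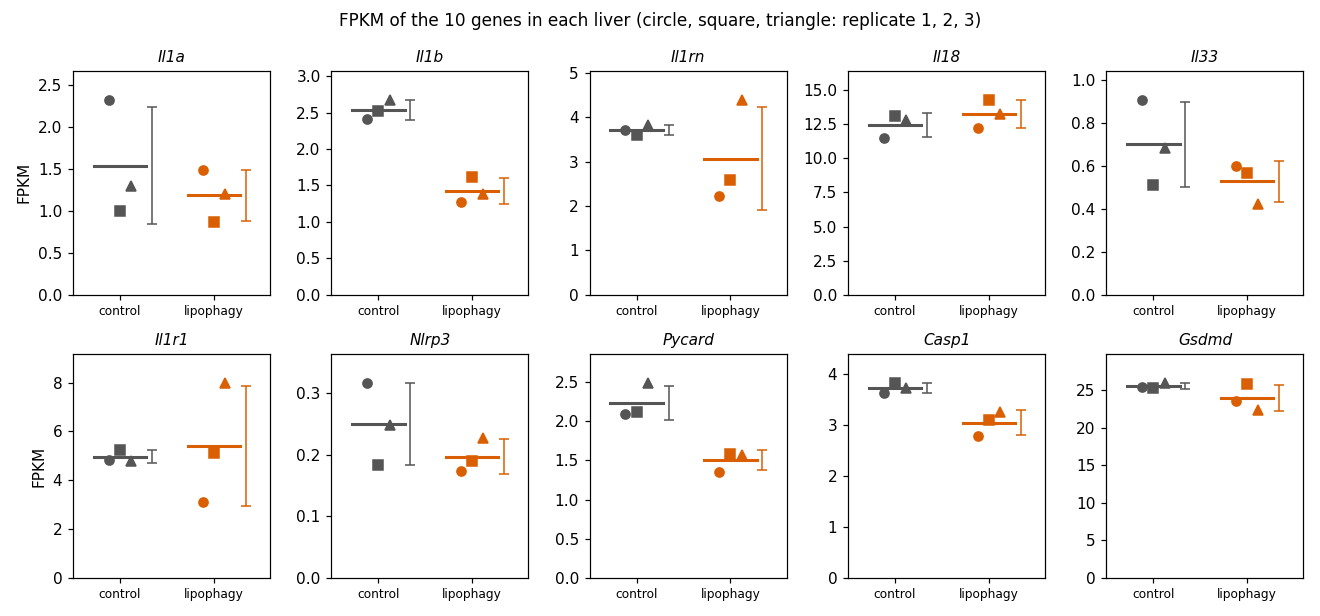
FPKM of the 10 genes in each liver (vertical axes, linear and starting at 0). Points are livers, with circle, square and triangle for replicates 1, 2 and 3, the long bar is the group mean and the bracket 1 SD to either side (n = 3). Control and lipophagy-induced livers stand apart for Il1b, Pycard and Casp1 and overlap for the other 7 genes.

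Il1b, the gene of interleukin-1 beta, differed most among the 10. It lies at chr2:129364570-129371139 on the minus strand (GENCODE, GRCm38), with 1 coding transcript of 7 exons and 1356 bases. Its FPKM was 2.41, 2.53 and 2.675 in control livers 1 to 3, and 1.27, 1.62 and 1.39 in lipophagy-induced livers 1 to 3. The highest lipophagy-induced liver was thus well below the lowest control liver. The mean was 2.54 ± 0.132 (SD, n = 3) in control and 1.42 ± 0.176 (SD, n = 3) in lipophagy-induced livers, or 56.1% of the control mean. The difference was -0.55 (SE 0.085, 95% interval -0.74 to -0.35), with an unadjusted p of 0.000194 and an adjusted p of 0.0915 by limma, and an exact permutation p of 0.1. By p it ranked 24th of the 11493 tested genes, and over all alternatives its adjusted p ran from 0.0672 to 0.336. These values rest on about 71.2 to 108 fragments in a control liver and 35.5 to 43.9 in a lipophagy-induced liver, estimates that cover counting error only. An antisense gene, Il1bos, overlaps Il1b on the plus strand. The library kit keeps the strand, and whether the counting used it is not given in the sources used here.

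Il1a, on the same strand of the same chromosome at chr2:129299610-129309972, encodes interleukin-1 alpha, which is active without cleavage by caspase-1. Its FPKM was 2.32, 0.993 and 1.29 in control livers 1 to 3, and 1.48, 0.864 and 1.20 in lipophagy-induced livers 1 to 3. The groups overlapped, and control liver 1 was the highest of the 6. The means were 1.53 ± 0.696 and 1.18 ± 0.309 (SD, n = 3 each), with a difference of -0.19 (SE 0.19, 95% interval -0.63 to 0.24, adjusted p = 0.589). Without control liver 1 the difference was 0.019, so its sign rested on that liver.

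Il1rn, at chr2:24336853-24351494 on the plus strand, encodes the antagonist of the interleukin-1 receptor. Its FPKM was 3.72, 3.61 and 3.83 in control livers 1 to 3, and 2.22, 2.58 and 4.39 in lipophagy-induced livers 1 to 3. Lipophagy-induced livers 1 and 2 lay below every control liver and liver 3 above every one. The means were 3.72 ± 0.114 and 3.06 ± 1.16 (SD, n = 3 each), and the difference was -0.25 (SE 0.18, 95% interval -0.66 to 0.15, adjusted p = 0.442). Without lipophagy-induced liver 3 the difference was -0.47, with an unadjusted p of 0.00103 and an adjusted p of 0.144, and without lipophagy-induced liver 1 it was -0.10, with an unadjusted p of 0.557.

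Il1b was also set against Il1rn within each liver, as agonist against antagonist. The log2(FPKM + 1) of Il1b less that of Il1rn was -0.47, -0.39 and -0.40 in control livers 1 to 3, and -0.50, -0.45 and -1.18 in lipophagy-induced livers 1 to 3. Lipophagy-induced livers 1 and 3 lay below every control liver, and liver 2 lay above control liver 1, so the groups overlapped. The mean difference was -0.29 (exact permutation p = 0.2, two-sided), and it was -0.063 without lipophagy-induced liver 3. With a pseudocount of 0.1 it was -0.465 and with one of 0.5 it was -0.371, each with an exact permutation p of 0.1.

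Il18 and Il33 encode family members that do not bind the product of Il1r1. Il18, at chr9:50554827-50581840 on the plus strand where it overlaps Bco2 and Tex12 on the other strand, had an FPKM of 11.5, 13.1 and 12.8 in control livers 1 to 3 and of 12.2, 14.3 and 13.3 in lipophagy-induced livers 1 to 3. The groups overlapped, and the highest and lowest of the 6 livers differed by 1.25 times, less than for any other of the 10 genes except Gsdmd. The difference was 0.082 (SE 0.089, 95% interval -0.12 to 0.29, adjusted p = 0.629), and Il18 was the only ligand of the 10 genes with a higher mean in lipophagy-induced livers. The value was 0.012 under quantile normalization, 0.028 without control liver 1 and 0.031 without lipophagy-induced liver 2, and 0.136 without lipophagy-induced liver 1. Il33, at chr19:29925114-29960718 on the plus strand, had an FPKM of 0.907, 0.510 and 0.682 in control livers 1 to 3 and of 0.599, 0.566 and 0.420 in lipophagy-induced livers 1 to 3. The groups overlapped here too. The difference was -0.15 (SE 0.10, 95% interval -0.39 to 0.091, adjusted p = 0.447), and it was -0.060 under quantile normalization and -0.063 without control liver 1. It was -0.33 with a pseudocount of 0.1 and -0.231 without control liver 2 (unadjusted p = 0.0655 by limma).

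Il1r1, at chr1:40225080-40317257 on the plus strand, encodes the signalling receptor. Its FPKM was 4.85, 5.26 and 4.78 in control livers 1 to 3, and 3.11, 5.11 and 7.97 in lipophagy-induced livers 1 to 3. The control livers lay close together, while lipophagy-induced liver 1 was the lowest and liver 3 the highest of the 6. The means were 4.96 ± 0.257 and 5.40 ± 2.45 (SD, n = 3 each), and the difference was 0.030 (SE 0.24, 95% interval -0.53 to 0.59, adjusted p = 0.956). The sign rested on single livers, with a difference of -0.25 without lipophagy-induced liver 3 and of 0.31 without lipophagy-induced liver 1.

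**Figure D2:**
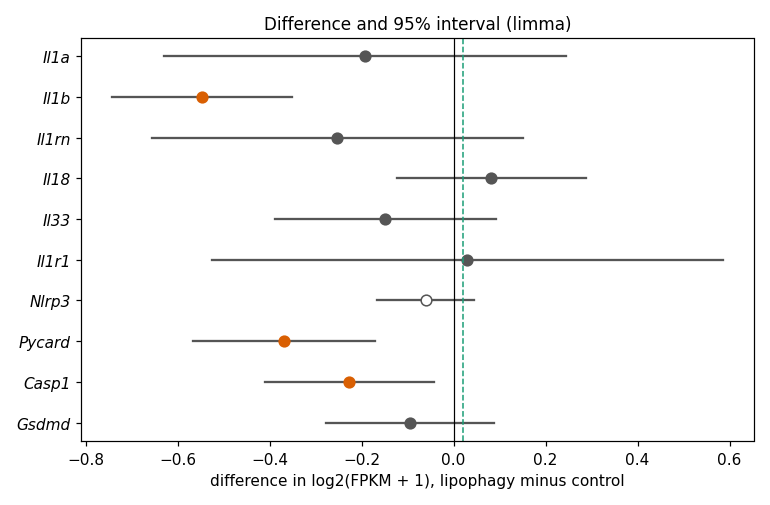
Difference in log2(FPKM + 1) of each of the 10 genes, lipophagy-induced less control livers (horizontal axis), with the 95% interval by limma (3 livers a group). Orange points had an unadjusted p below 0.05 (Il1b, Pycard and Casp1), the open point is Nlrp3 from the fit of all genes without the filter, and the dashed line is the median of all tested genes, 0.020.

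Of the inflammasome genes, the adaptor and the protease were lower in all lipophagy-induced livers, and the sensor and the pore former overlapped between the groups. Pycard, at chr7:127989708-127993867 on the minus strand, had an FPKM of 2.09, 2.12 and 2.49 in control livers 1 to 3 and of 1.36, 1.58 and 1.57 in lipophagy-induced livers 1 to 3. The groups did not overlap. Its mean was 2.23 ± 0.222 (SD, n = 3) in control and 1.503 ± 0.126 (SD, n = 3) in lipophagy-induced livers, or 67.3% of the control mean. The difference was -0.37 (SE 0.086, 95% interval -0.57 to -0.17), with an unadjusted p of 0.00265 and an adjusted p of 0.134 by limma, and an exact permutation p of 0.1.

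Casp1, at chr9:5298517-5307265 on the plus strand, showed a smaller difference with little spread. Its FPKM was 3.62, 3.82 and 3.73 in control livers 1 to 3, and 2.77, 3.10 and 3.25 in lipophagy-induced livers 1 to 3. The groups did not overlap, although the highest lipophagy-induced liver and the lowest control liver were close. The mean was 3.73 ± 0.0998 (SD, n = 3) in control and 3.04 ± 0.245 (SD, n = 3) in lipophagy-induced livers, or 81.7% of the control mean. The difference was -0.23 (SE 0.080, 95% interval -0.41 to -0.043), with an unadjusted p of 0.0218, an adjusted p of 0.204 and an exact permutation p of 0.1. The unadjusted p was 0.0686 without control liver 2, 0.0569 without control liver 3 and 0.0709 without lipophagy-induced liver 1. About 121 to 169 fragments in a control liver and 87.1 to 107 in a lipophagy-induced liver lay behind these values.

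Nlrp3, the sensor of the best-studied inflammasome, located at chr11:59541568-59566956, was barely detected. Its FPKM was 0.316, 0.183 and 0.249 in control livers 1 to 3, and 0.173, 0.190 and 0.228 in lipophagy-induced livers 1 to 3. The groups overlapped, and all 6 livers were under the level required for testing. In the fit without that requirement the difference was -0.061 (SE 0.044, 95% interval -0.17 to 0.044, adjusted p = 0.538). The log2(FPKM + 1) scale understates the change of a gene at so low a level, and the means of 0.249 and 0.197 FPKM put lipophagy-induced livers at 78.9% of control.

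Gsdmd, at chr15:75862327-75867408 on the plus strand, was the most evenly expressed of the 10, and its highest and lowest livers differed by 1.16 times. Its FPKM was 25.5, 25.3 and 26.0 in control livers 1 to 3, and 23.6, 25.8 and 22.4 in lipophagy-induced livers 1 to 3. Lipophagy-induced liver 2 lay within the control range and the other two below it. The difference was -0.095 (SE 0.079, 95% interval -0.28 to 0.087, unadjusted p = 0.264, adjusted p = 0.519). Under quantile normalization it was -0.21, with an unadjusted p of 0.0256. It was -0.148 without lipophagy-induced liver 2 and -0.0498 without lipophagy-induced liver 3.

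The rest of the pathway was described through lists of genes, without a test of any list, and 0 genes of these lists had an adjusted p below 0.05. The genes named have an unadjusted p below 0.05 or the largest difference of their list in either direction, and every other gene named here was chosen after its values were seen. Of 5 other ligands, Il1f5, Il1f6, Il1f8 and Il1f10 were listed at 0 in every liver, and Il1f9 (interleukin-36 gamma) ran from 0.255 to 0.678 FPKM, too low to be tested. Among receptors and binding proteins 4 of 9 genes were tested, Il1r1 included, of which 3 had a higher and 1 a lower mean. The accessory chain Il1rap had 46.8, 43.6 and 40.5 FPKM in control livers and 62.3, 50.3 and 53.8 FPKM in lipophagy-induced livers. All lipophagy-induced livers were above the control livers, with a difference of 0.33 (SE 0.10, unadjusted p = 0.0108), which under quantile normalization was 0.20 (unadjusted p = 0.0828). Il18bp, which neutralizes interleukin-18, had the lowest difference of the 4 tested at -0.020. The decoy receptor Il1r2, which binds interleukin-1 without signalling, was too low to be tested, at 0.222, 0.213 and 0.298 FPKM in control livers and 0.0357, 0.148 and 0.0684 FPKM in lipophagy-induced livers. Its groups did not overlap.

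The list of receptor signalling genes and NF-kB subunits held 17 tested genes, among them Relb and Nfkb2 of the non-canonical NF-kB branch. Of the 17, 13 had a lower and 4 a higher mean in lipophagy-induced livers, with a median difference of -0.13. Under quantile normalization 11 were lower and 6 higher. At an unadjusted p below 0.05, 6 of the 17 were lower and 0 higher, beside 7.97% and 11.5% of all tested genes. Relb, an NF-kB subunit of the non-canonical branch, had the largest difference at -0.41 (SE 0.11, unadjusted p = 0.00552), with 2.55 ± 0.460 FPKM in control and 1.65 ± 0.138 FPKM in lipophagy-induced livers (SD, n = 3 each). Ikbkg, the regulatory subunit of the IkB kinase, followed at -0.35 (SE 0.080, unadjusted p = 0.00208). The adaptor Myd88 differed by -0.33 (unadjusted p = 0.0108), with 10.3, 8.88 and 9.63 FPKM in control livers and 6.64, 7.28 and 8.41 FPKM in lipophagy-induced livers. Its groups did not overlap. Rela, the main activating subunit, differed by -0.26 (unadjusted p = 0.0128), Nfkb2 by -0.30 (unadjusted p = 0.0493) and the kinase adaptor Tab2 by -0.20 (unadjusted p = 0.0485). The kinase subunit Ikbkb, at -0.14 and an unadjusted p of 0.115, had one of 0.0494 under quantile normalization. Nfkb2 and Tab2 lost this threshold under another scaling, Nfkb2 under quantile normalization (unadjusted p = 0.0693) and Tab2 when livers were scaled to the same median (unadjusted p = 0.0508). The largest positive difference was that of Chuk, a catalytic subunit of the IkB kinase, at 0.12.

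Inflammasome sensors other than Nlrp3 were mostly low, and 5 of the 13 genes of that list were tested. Their means were lower for 4 and higher for 1, and under quantile normalization lower for 1 and higher for 4, so that the list had no stable direction. Nlrp6 was by far the most abundant sensor, with 36.0, 36.2 and 37.5 FPKM in control livers and 31.2, 32.2 and 39.4 FPKM in lipophagy-induced livers. Its difference of -0.099 was the lowest of the 5, its groups overlapped, and Nlrp12 had the highest difference at 0.10. Of the 16 tested regulators, caspases and gasdermins, among them Pycard, Casp1 and Gsdmd, 9 had a lower and 7 a higher mean, and under quantile normalization 10 were lower and 6 higher. At an unadjusted p below 0.05, 3 of the 16 were lower and 3 higher, beside 7.97% and 11.5% of all tested genes. Beside Pycard and Casp1 the third lower gene was P2rx7, the ATP-gated channel that can set off the NLRP3 inflammasome, with 1.20, 1.45 and 1.19 FPKM in control livers and 1.05, 0.854 and 0.969 FPKM in lipophagy-induced livers. Its difference was -0.22 (unadjusted p = 0.0306), and under quantile normalization -0.14 (unadjusted p = 0.148). The 3 higher genes were Txnip, a thioredoxin-binding protein, at 0.38 (unadjusted p = 0.0107), Ninj1, which takes part in the rupture of the plasma membrane, at 0.24 (unadjusted p = 0.0481), and the deubiquitinase subunit Brcc3 at 0.21 (unadjusted p = 0.0478). Under quantile normalization none of the 3 kept an unadjusted p below 0.05, with values of 0.0511, 0.445 and 0.14. The lowest difference of this list was that of Casp12 at -0.54, with overlapping groups and an unadjusted p of 0.0549.

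Of 11 tested priming receptors and adaptors, which bring on transcription of Il1b and Nlrp3 after microbial or tissue signals, 7 had a lower and 4 a higher mean, with a median difference of -0.10 that was -0.025 under quantile normalization. At an unadjusted p below 0.05, 3 of the 11 were lower and 1 higher, beside 7.97% and 11.5% of all tested genes. The 3 lower were Tlr2 at -0.38 (unadjusted p = 0.0208), Tlr1 at -0.32 (unadjusted p = 0.0087) and Tlr3 at -0.27 (unadjusted p = 0.0125). Tlr1 and Tlr3 did not overlap between groups, while lipophagy-induced liver 2 had more Tlr2 than control liver 2. The adaptor Ticam1 was the 1 higher gene at 0.20 (unadjusted p = 0.0404). Tlr3 and Ticam1 had unadjusted p-values of 0.0557 and 0.0501 under quantile normalization, and Lbp, which binds lipopolysaccharide, had one of 0.0191 there, beside 0.0894 as deposited.

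Genes that interleukin-1 and NF-kB are known to induce had the lowest median of the pathway lists. Of 19 tested, 15 had a lower and 4 a higher mean, with a median difference of -0.31, and under quantile normalization 14 were lower and 5 higher. At an unadjusted p below 0.05, 8 of the 19 were lower and 1 higher, beside 7.97% and 11.5% of all tested genes. Lcn2, the iron carrier lipocalin 2, had 132 to 210 FPKM in control livers and 78.2 to 122 FPKM in lipophagy-induced livers, without overlap, and a difference of -0.79 (SE 0.20, unadjusted p = 0.00404). Ccl2, the chemokine that draws monocytes, had 8.39, 5.94 and 4.99 FPKM in control livers and 4.07, 2.76 and 3.25 FPKM in lipophagy-induced livers, again without overlap, and differed by -0.76 (SE 0.18, unadjusted p = 0.00251). The chemokines Ccl3 at -0.62 (unadjusted p = 0.00783), Ccl4 at -0.59 (unadjusted p = 0.00998) and Cxcl1 at -0.53 (unadjusted p = 0.0281) followed. Nfkbie, an inhibitor of NF-kB, differed by -0.33 (unadjusted p = 0.00853), the adhesion molecule Icam1 by -0.33 (unadjusted p = 0.00477) and Tnf by -0.31 (unadjusted p = 0.0222). Tnf had an unadjusted p of 0.0779 under quantile normalization. With means of 0.821 FPKM in control and 0.473 FPKM in lipophagy-induced livers, it reached the level required for testing only through the control livers. Sod2, the mitochondrial superoxide dismutase, was the 1 higher gene at 0.21 (unadjusted p = 0.0349), and under quantile normalization its difference was 0.067. Il6 did not pass 0.0476 FPKM in any liver and was listed at 0 in 3 of the 6.

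**Figure D3:**
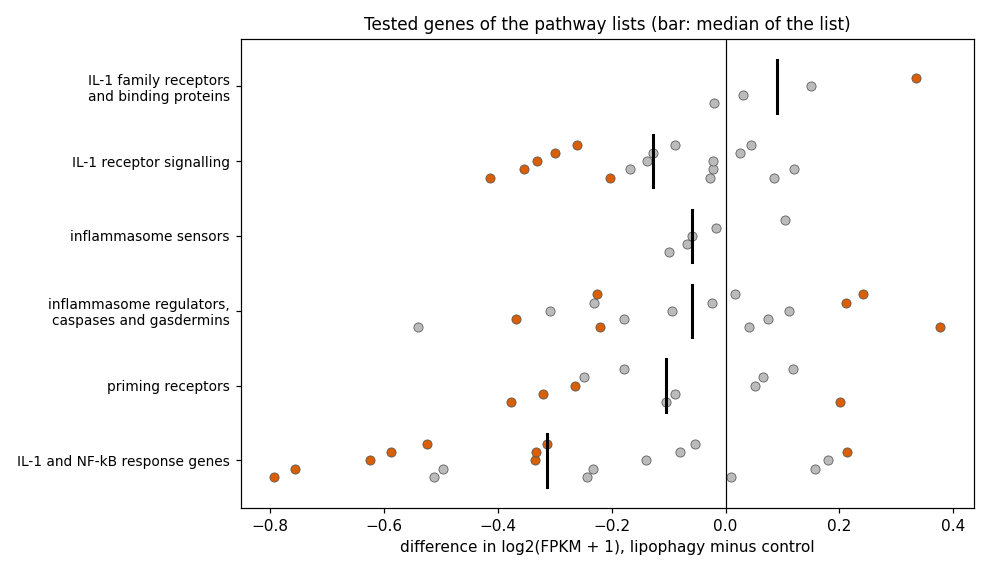
Difference in log2(FPKM + 1), lipophagy-induced less control livers (horizontal axis), of the tested genes of each pathway list (rows). Each point is a gene, orange where the unadjusted limma p was below 0.05, and the black bar is the median of the list, lowest for the response genes at -0.31 and highest for the receptors at 0.090. No gene shown had an adjusted p below 0.05.

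Because bulk tissue was measured, fewer cells of a type and less RNA per cell cannot be told apart, and the markers of the cell types that can carry these genes are given beside them. Of 8 tested monocyte markers all 8 had a lower mean in lipophagy-induced livers, 7 with an unadjusted p below 0.05 (Ly6c2, Ccr2, Itgam, Cx3cr1, Fcgr1, Chil3 and Plac8). Of all tested genes 7.97% were lower and 11.5% higher at this threshold. Under quantile normalization 6 markers were below it, beside 899 lower and 745 higher of all 11493 tested genes. There Ccr2 (0.0535) and Itgam (0.098) lost it and S100a4 (0.0317) gained it. The lowest difference was that of Ly6c2 at -0.45. Chil3, at 0.740 FPKM in control and 0.334 FPKM in lipophagy-induced livers, reached the level required for testing only through the control livers. It is among the 8 tested markers used below. The summed FPKM of the 9 monocyte markers was 59.1 to 63.9 in control and 47.3 to 50.1 in lipophagy-induced livers, without overlap. None of the 9 was at 0, and F13a1, too low to be tested, had a higher mean in lipophagy-induced livers, at 114% of control with overlapping groups. Of 3 tested neutrophil markers 3 were lower, S100a9 at -0.60 (unadjusted p = 0.00936) and Csf3r at -0.28 (unadjusted p = 0.0473, and 0.145 under quantile normalization) among them. The summed FPKM of 11 markers was 19.4 to 33.7 in control and 17.3 to 20.2 in lipophagy-induced livers. The granule genes Mpo and Elane stayed at or below 0.0612 and 0.150 FPKM, and each was at 0 in 1 liver. Camp, Ngp and Mmp9, also too low to be tested, had a higher mean in lipophagy-induced livers, at 131%, 106% and 106% of control, with overlapping groups. Of 13 tested macrophage markers 9 were lower and 4 higher. Cd68 at -0.38, Csf1r at -0.28, Cybb at -0.27 and Mpeg1 at -0.25 were lower with an unadjusted p below 0.05, and Vsig4, a marker of resident Kupffer cells, was higher at 0.40. Under quantile normalization 7 were below that threshold and lower, C1qa, C1qb and C1qc having gained it (unadjusted p = 0.00115, 0.00514 and 0.00113), and the median was -0.30 in place of -0.15. The summed FPKM of the 14 macrophage markers overlapped, at 880 to 1101 in control and 840 to 1007 in lipophagy-induced livers, and none of the 14 was at 0.

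Il1b, Pycard and Casp1 were also set against these lists within each liver. The log2(FPKM + 1) of Il1b less the mean of the 14 macrophage markers was -2.99, -2.95 and -2.88 in control livers 1 to 3, and -3.52, -3.35 and -3.34 in lipophagy-induced livers 1 to 3. The groups did not overlap, and the mean difference was -0.47 (exact permutation p = 0.1, two-sided, the smallest possible). Other lists, chosen after the data were seen, were put in place of this one. Against the 9 monocyte markers the mean difference was -0.26, without overlap and with an exact permutation p of 0.1. Of the 11 neutrophil markers 8 had a mean below 0.5 FPKM, where log2(FPKM + 1) moves little, so the comparison was repeated with the tested markers alone. Il1b then differed by -0.45 against 13 macrophage markers and by -0.22 against 8 monocyte markers, both without overlap and with an exact permutation p of 0.1. Against the 3 tested neutrophil markers it differed by -0.13, the groups overlapped and the exact permutation p was 0.6. With all 11 neutrophil markers the difference was -0.41, a value that rests on the markers near 0. Pycard differed by -0.27, -0.040 and 0.049 from the tested macrophage, monocyte and neutrophil markers, and its groups stood apart against the macrophage markers alone. Casp1 differed by -0.13, 0.10 and 0.19, with overlap against macrophage and neutrophil markers and with all lipophagy-induced livers above the control livers against monocyte markers (exact permutation p = 0.1).

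**Figure D4:**
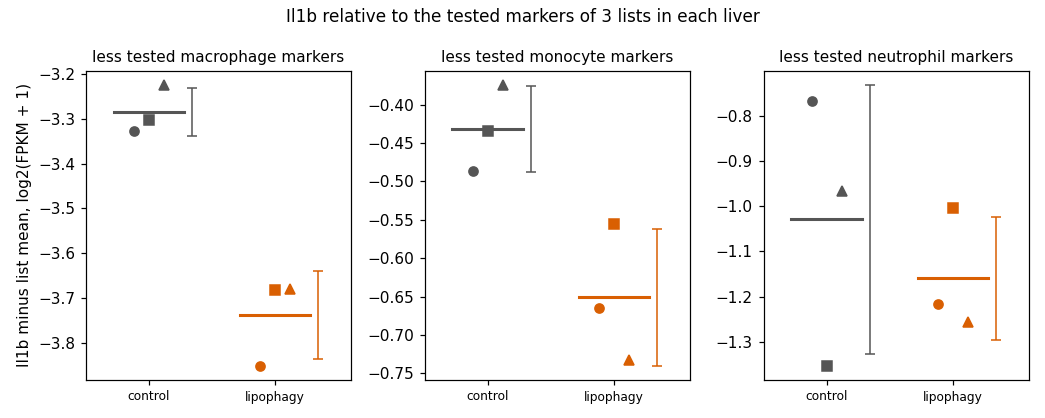
Il1b less the mean of the tested macrophage, monocyte or neutrophil markers (panels, 13, 8 and 3 markers) in each liver, in log2(FPKM + 1) units. Points are livers, with circle, square and triangle for replicates 1, 2 and 3, the long bar is the group mean and the bracket 1 SD to either side (n = 3). The 3 lipophagy-induced livers lie below the 3 control livers in the macrophage and monocyte panels and overlap with them in the neutrophil panel, and the vertical axes do not start at 0.

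The remaining cell types are given by count, and of all tested genes 7.97% were lower and 11.5% higher at an unadjusted p below 0.05. Under quantile normalization 899 of all 11493 tested genes were lower and 745 higher at this threshold. Of 10 tested hepatocyte markers 8 had a higher and 2 a lower mean, with a median of 0.26 that was 0.0096 under quantile normalization, where 5 were higher and 4 lower. Alb, the most abundant gene, is given the same value in every liver by that normalization and takes no sign there. At an unadjusted p below 0.05 Tat at 0.995, Pck1 at 0.74, Alb at 0.47 and Cyp3a11 at 0.35 were higher. Under quantile normalization the unadjusted p was 0.0686 for Tat, 0.0829 for Pck1 and 0.0694 for Cyp3a11. Apoa1 had the lowest difference, -0.062. Of 10 tested stellate cell markers 7 were lower and 3 higher (9 and 1 under quantile normalization), with Col1a1 at -0.75, Acta2 at -0.34 and Pdgfrb at -0.32 below an unadjusted p of 0.05, and Lrat the highest at 0.25. Under quantile normalization Acta2 had an unadjusted p of 0.0553 and Dcn one of 0.0372. Of 9 tested markers of sinusoidal endothelium 8 were higher and 1 lower, from Pecam1 at -0.11 to Clec4g at 0.43, and none had an unadjusted p below 0.05. Of 5 tested bile duct markers 5 were lower, or 4 under quantile normalization where Sox9 changed sign, and Spp1 had the lowest difference at -0.71 (unadjusted p = 0.0547, and 0.0221 under quantile normalization). Among dendritic cell markers Itgax at -0.27 and Clec9a at 0.063 were tested. Among lymphocyte markers 3 were tested, Nkg7 had the lowest difference at -0.26 (unadjusted p = 0.0493) and Gzma the highest at 0.12. The unadjusted p of Nkg7 was 0.162 under quantile normalization and 0.0509 when livers were scaled to the same median. The part of any of these cell types, monocytes, neutrophils and macrophages included, in the values of the 10 genes was not tested.

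The genes whose log2(FPKM + 1) followed that of Il1b most closely over the 6 livers were Arl8a, a lysosomal GTPase, with a Pearson r of 0.996, the phosphatase regulator Ppp1r9b at 0.995, Tapbp, which loads peptides on MHC class I, at 0.994, and the annexins Anxa4 at 0.994 and Anxa5 at 0.993. The 6 points share the 2 groups and their libraries, so these values are given as a description without a test. Anxa5 had 144 ± 9.59 FPKM in control and 101.0 ± 5.89 FPKM in lipophagy-induced livers (SD, n = 3 each), and Arl8a 13.1 ± 0.447 and 10.5 ± 0.575 FPKM.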

How the data were processed

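RNA from 3 control and 3 lipophagy-induced livers was sequenced from stranded poly(A) libraries (100 bp paired-end), on a HiSeq instrument according to the labels and a NovaSeq instrument according to the study's methods. The authors deposited 1 FPKM value per gene and liver, normalized to transcript length and mapped fragments. The submitters' processing notes name TopHat2 2.0.13, Bowtie2 2.2.3, SAMtools 0.1.19, Cufflinks 2.2.1 and mm10, and the annotation is not given in the sources used here. Genes whose mean reached 0.5 FPKM were tested by limma 3.58.1 in R 4.3.3 on log2(FPKM + 1), a scale that understates changes of low genes (intensity trend, two-sided, no covariates, Benjamini-Hochberg, threshold 0.05). No count model was applied, and the script was tested on simulated data. Tables and plots used pandas 2.3.3, matplotlib 3.10.9 and numpy 2.4.6 under Python 3.11.15.

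The 10 genes and all lists were chosen with earlier results of these data known. The genes named are the 10, those of each list with an unadjusted p below 0.05 or the largest rise or fall, the 5 most correlated with Il1b, and others chosen after their values were seen. The interleukin-36 ligands, gasdermin E (Dfna5) and Adgre1 were found under one of their symbols, and Ly6g was not analysed here.

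Depth was estimated from low FPKM values of GENCODE genes with 1 transcript, taking 200 bases off its length. Between 86.6% and 90.7% of 365 to 437 low genes lay within 0.25 of a whole fragment, and with 0 or 300 bases off the depths were 21.1 to 31.5 or 24.8 to 36.7 M fragments. Coordinates are from GENCODE and promoters from RefSeq, both on GRCm38, which is the assembly of mm10. Alternatives were other pseudocounts (0.1, 0.5), filters (none, 0.1 or 1 FPKM), quantile or median scaling, limma without the trend, a replicate block and each liver left out.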

Additional observations from a re-analysis of the deposited data

How the results depend on the processing

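Under each of the 15 alternatives 0 members had an adjusted p below 0.05, and 2 to 4 were lower and 0 higher at an unadjusted p below 0.05. The sign of the difference turned for Il1a without control liver 1 and for Il1r1 without lipophagy-induced liver 3, and the other 7 tested members kept theirs wherever they were fitted. A filter of 1 FPKM leaves out Il33, and Nlrp3 was fitted only without a filter and with one of 0.1 FPKM. Leaving out each liver, Il1a ran from -0.349 to 0.0194 and Il1r1 from -0.25 to 0.313. The median difference of the tested members was -0.299 with a pseudocount of 0.1 and ran from -0.25 to -0.0969 when each liver was left out, lowest without lipophagy-induced liver 3 and highest without control liver 1. Il1b relative to macrophage markers was -0.734 with a pseudocount of 0.1, -0.586 with 0.5, -0.286 under quantile normalization, -0.258 with monocyte markers, -0.219 with the tested monocyte markers and -0.131 with the tested neutrophil markers, the last 3 chosen after seeing the data. Leaving out each liver, it ran from -0.5 to -0.408, and Il1b relative to Il1rn from -0.423 to -0.063. With the replicate number as a block, 43 genes of the whole table passed the adjusted threshold, beside 3 without it, and Il1b had an adjusted p of 0.0684. Same-numbered livers correlated by 0.25, 0.234 and -0.0565 in their deviations from the group means, and differently numbered livers by -0.387 to 0.251. Whether same-numbered livers shared more than a number was not tested, and the block changed no call among the members. Over all genes, unadjusted calls were 916 lower and 1327 higher, and 899 lower and 745 higher under quantile normalization. Over the alternatives they ran from 602 to 1334 lower and from 745 to 1609 higher, with 10223 to 17185 genes tested. The number of genes with an adjusted p below 0.05 ran from 1 to 43 over the alternatives. With 3 livers a group no single-value permutation test can pass 0.05, and Nlrp3 lay under the level required for testing and Il33 close to it.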

Other observations

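Il1r1 and Il1rn had the widest spread among lipophagy-induced livers, relative to the mean, of the 10 genes, and in both liver 3 was the highest and liver 1 the lowest. Among the response genes, Nfkbiz, an NF-kB cofactor that interleukin-1 induces, had the same order, with 1.16, 1.98 and 3.01 FPKM in lipophagy-induced livers 1 to 3, beside 2.25, 2.96 and 2.25 FPKM in control livers. Zc3h12a, an endoribonuclease that degrades cytokine transcripts, likewise had 1.19, 1.605 and 2.35 FPKM in lipophagy-induced livers 1 to 3, beside 1.44, 1.93 and 1.61 FPKM in control livers. Of the 10 genes, Casp1 and Nlrp3 had this order too, which makes 4 with it, and the other 6, Il1b among them, did not have it. Of the 19 tested response genes 7 had it, and of all 11493 tested genes 17.8% did. These 2 response genes were chosen after their values were seen, and the shared order of 3 livers was not tested.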
